A study of Brachypodium distachyon with 4 samples.

Results

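The 200 BRADI loci with the most reads in wild-type leaves of the grass Brachypodium distachyon held 32.3% of all counted reads in the wild type and 30.9% in the mutant jmj1-1. They were chosen by their measured level in the wild type, as the loci with the highest mean CPM over both Bd21-3 libraries, CPM being the reads of a locus divided by all reads of its library and multiplied by 1000000. The file lists 35125 rows, of which 34310 are BRADI loci, so the chosen loci are 0.583% of the BRADI loci. The rule left 5 loci out of the ranking, which would have stood at ranks 58 to 162. The Bd21-3 levels chose the loci, so their rank and share in Bd21-3 are a description and not a finding. At the edge of the choice, ranks 199 and 200 had 483.5 and 483.1 CPM, and ranks 201 and 202 had 483.0 and 481.7 CPM.

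The plants were the inbred line Bd21-3, used as the wild type, and jmj1-1, a mutant that the labels place in the Bd21-3 background, with 2 libraries of messenger RNA each. All plants were sampled at day 17 and leaf stage 4, under days of 20 h light and 4 h dark, 10 h after lights on. The labels used here do not describe the allele or the number of plants per library. The spread behind each p-value is therefore that between these libraries alone and may be technical.

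JMJ names are given to proteins with a JmjC domain, a family that includes histone demethylases, enzymes that remove methyl groups from histones. In a green leaf, a small number of nuclear genes supplies a large part of the messenger RNA. Among the transcripts usually found at the top are those for the small subunit of Rubisco, which fixes carbon dioxide, and for the chlorophyll-binding proteins of the light-harvesting antennae. Which of the loci described here encode such proteins is not in the files used here. No identifier of the 200 matched the RefSeq gene table, so loci are described by their abundance rank in Bd21-3 and no leaf marker or marker of another cell type could be looked up. Rank orders the reads that a locus gave. It does not compare levels per length, because no length was joined to these loci.

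Depth was 13825916 to 16520046 counted reads per library. The 200 loci had between 4295 and 209889 reads in any library, so the counting error of the lowest value was 1.53%. All 200 passed the filter on low counts and were tested. The gap between replicates had a median of 0.04 on the log2 scale in Bd21-3 and 0.03 in jmj1-1, and the gap between genotype means had a median of 0.14. For 161 of the 200 loci the gap between genotypes was larger than both replicate gaps, which is 80.5% against 38.9% of all tested genes and 69% of ranks 201 to 400 (on log2 of CPM plus 0.5).

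The 200 loci took a smaller part of the reads in jmj1-1. Their share was 32.3% in Bd21-3 replicate 1 and 32.2% in replicate 2, against 31.1% in jmj1-1 replicate 1 and 30.6% in replicate 2. Both mutant libraries lay below both wild-type libraries, and the mutant libraries were further apart from each other than the wild-type ones. The means were 32.3% ± 0.0743 in Bd21-3 and 30.9% ± 0.368 in jmj1-1 (SD, n = 2 each), which is 1.39 percentage points less in the mutant (jmj1-1 minus Bd21-3, -1.39). The exact binomial 95% interval of a library's share was narrow, for example 31.1% to 31.2% in jmj1-1 replicate 1, and it covers counting error only. No p-value is given for this sum, since its members were chosen with results known, and 2 libraries against 2 cannot give an exact two-sided permutation p below 0.33. In bulk leaf RNA, fewer cells of a type and less RNA per cell cannot be told apart.

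**Figure D1:**
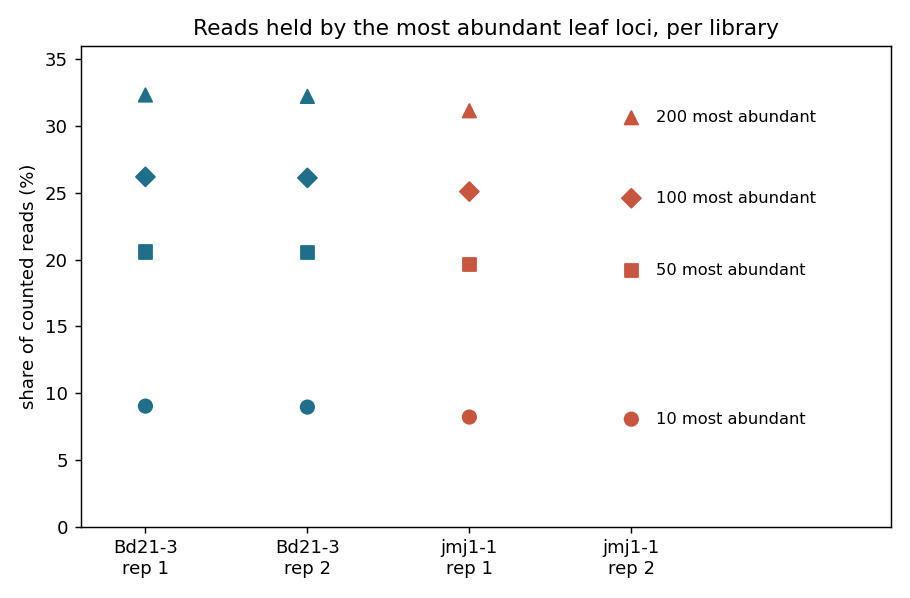
Share of counted reads (%, vertical axis) held by the 10, 50, 100 and 200 most abundant loci in each of the 4 libraries (horizontal axis; blue, Bd21-3; red, jmj1-1). At each of the 4 cut-offs both jmj1-1 libraries sit below both Bd21-3 libraries, and for the 200 loci the values run from 30.6% to 32.3%.

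Within the 200, the difference in share was largest at ranks 1 to 10. The 10 most abundant loci held 9.02% and 8.95% in the wild type, against 8.20% and 8.05% in the mutant. They make up 62.1% of the net difference of the 200, with a change of -0.86 points. Ranks 11 to 50 went from 11.6% ± 0.0154 to 11.3% ± 0.203, and ranks 101 to 200 from 6.11% ± 0.0194 to 6.04% ± 0.0154 (SD, n = 2 each). The net figure hides movement in both directions. A lower mean share in jmj1-1 was seen at 126 of the 200 loci, adding to -2.23 points, and a higher one at 74, adding to 0.84 points. The 12 loci with the largest losses account for more of that -2.23 than all the other losing loci together. Below rank 400 the balance was the other way, since shares of one library add to a fixed total. Ranks 1001 to 5000 held 28.8% in Bd21-3 and 29.4% in jmj1-1, and loci from rank 5001 down held 18.5% and 19.5%.

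The 10 most abundant loci kept much of their order. Of the first 10 in Bd21-3, 9 were also in the first 10 in jmj1-1. The locus ranked 1 in both genotypes had 12739 and 13010 CPM in Bd21-3 and 11863 and 11451 CPM in jmj1-1, after scaling by the trimmed mean of M-values (TMM), which sets libraries on a common scale by their middle genes. The groups did not overlap, and the log2 change was -0.14 (SE 0.029, adjusted p = 1.84e-04, edgeR's quasi-likelihood test with Benjamini-Hochberg adjustment over 21456 genes). This test and the TMM-scaled CPM are used for all single loci that follow. The locus ranked 2 had 12966 and 12473 CPM in Bd21-3 and 10393 and 10259 CPM in jmj1-1. Its share of the reads changed by -0.196 percentage points, the largest loss among the 200, and its log2 change was -0.30 (SE 0.029, adjusted p = 2.16e-12). The locus ranked 10 had 5882 and 5897 CPM in Bd21-3 and 4461 and 4386 CPM in jmj1-1, where it stood at rank 14. With a log2 change of -0.41 (SE 0.031, adjusted p = 5.74e-17), it changed most among the first 10.

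Of these 10 loci, 8 were called lower in jmj1-1 and 0 higher in edgeR's quasi-likelihood test, with 0 higher at an unadjusted p under 0.05 and 0 in DESeq2. The exceptions were ranks 5 and 8. Over all tested genes, 7.75% were called lower and 6.13% higher, and small changes are easier to call at deeply read loci. Tested against a fold of 1.2, 2 of these 10 loci were lower and 0 higher. That test called 1.23% of all tested genes lower and 1.96% higher. The locus ranked 5 had 9216 and 9224 CPM in Bd21-3 and 9402 and 9006 CPM in jmj1-1. Its mutant values enclosed the wild-type values (adjusted p = 0.977, not called). The locus ranked 8 had 6667 and 6477 CPM in Bd21-3 and 6461 and 6188 CPM in jmj1-1 (adjusted p = 0.274). Both of its mutant values were lower, and the nearest values of the genotypes lay closer together than the replicates did.

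**Figure D2:**
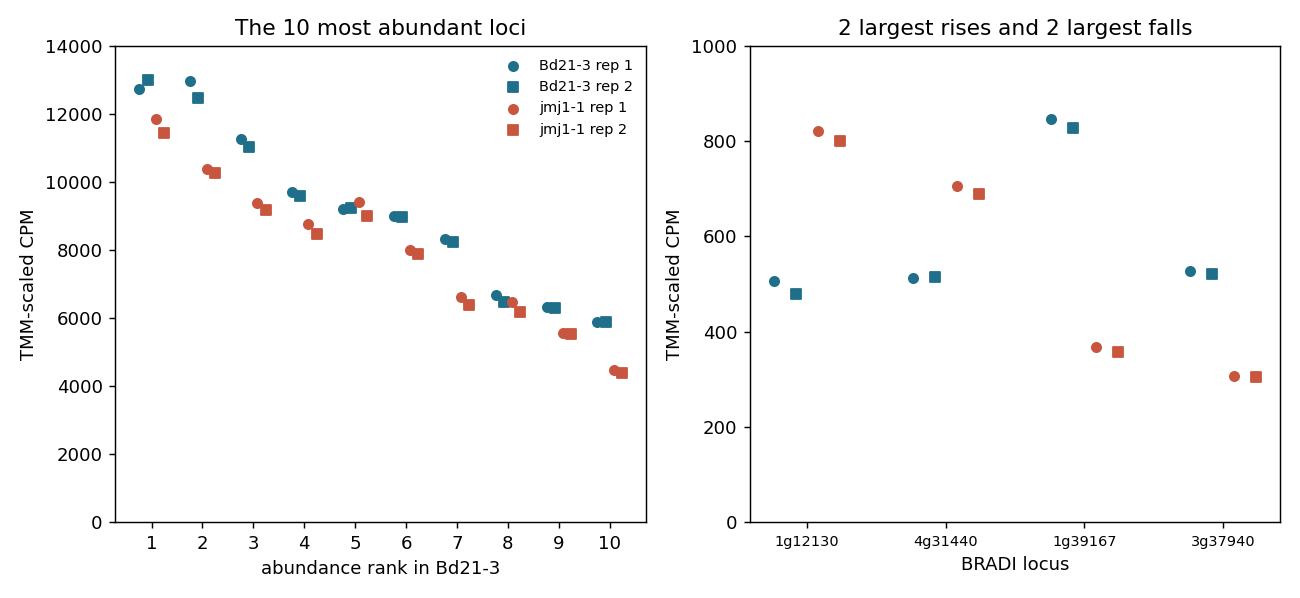
TMM-scaled CPM (vertical axes, linear, from 0) in each library for the 10 most abundant loci by rank (left) and for the 2 called loci that rose most and the 2 that fell most (right); circles are replicate 1 and squares replicate 2. Among the first 10 the jmj1-1 points lie below the Bd21-3 points except at rank 5, and for the 4 loci on the right the genotypes do not overlap.

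Among all 200 loci, 107 were lower in jmj1-1 and 26 were higher, while 67 were not called. Over all 21456 tested genes, 7.75% were called lower and 6.13% higher, 13.9% in all. The share called lower among the 200 was 53.5% and the share called higher 13.0%. Small changes are easier to call at deeply read loci, and the ranks just below the 200 were also called often. Of ranks 201 to 400, 43.5% were called lower and 9% higher. The split depended on the scaling. With library totals in place of TMM, 80 of the 200 were called lower and 42 higher, so that 34.4% of their calls were higher against 19.5% with TMM. None of the 133 called loci changed sign under any scaling, filter, tool or left-out library tried. Scaling could not reverse a sign, since library totals shift log2 changes by about 0.05, less than the change of any called locus. Filters and tools reuse the same counts, so an unchanged sign says little there. At every called locus the groups did not overlap, so leaving out a library could hardly reverse a sign either. Without jmj1-1 replicate 1, 11 of the 200 were called higher, and without the filter on low counts 17 were.

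Most of these changes were small. The median log2 change of the 200 was -0.12, against 0.0033 over all tested genes, and with library totals it was -0.06, against 0.06 over all tested genes. The gap between both medians was -0.12 with either scaling. A change of scaling shifts all genes by nearly the same amount, so this gap could hardly differ and is no check of the scaling. Among the 133 called loci the median change was 1.14-fold, 94 were under 1.2-fold and 3 were over 1.5-fold. Tested against a fold of 1.2, 11 of the 200 were lower and 4 higher, which is 5.5% and 2%. The same test called 1.23% of all tested genes lower and 1.96% higher, so the share called higher was near that of all genes. Of ranks 201 to 400 it called 3% lower and 0% higher. Both jmj1-1 libraries lay below both Bd21-3 libraries at 128 of the 200 loci and above them at 42. Over all tested genes, 25.3% lay below and 25.5% above in that way. Among the 200 loci at ranks 201 to 400, 118 lay below and 34 above, so the pattern was not particular to the first 200. The largest log2 change among the loci not called was 0.11 in size.

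**Figure D3:**
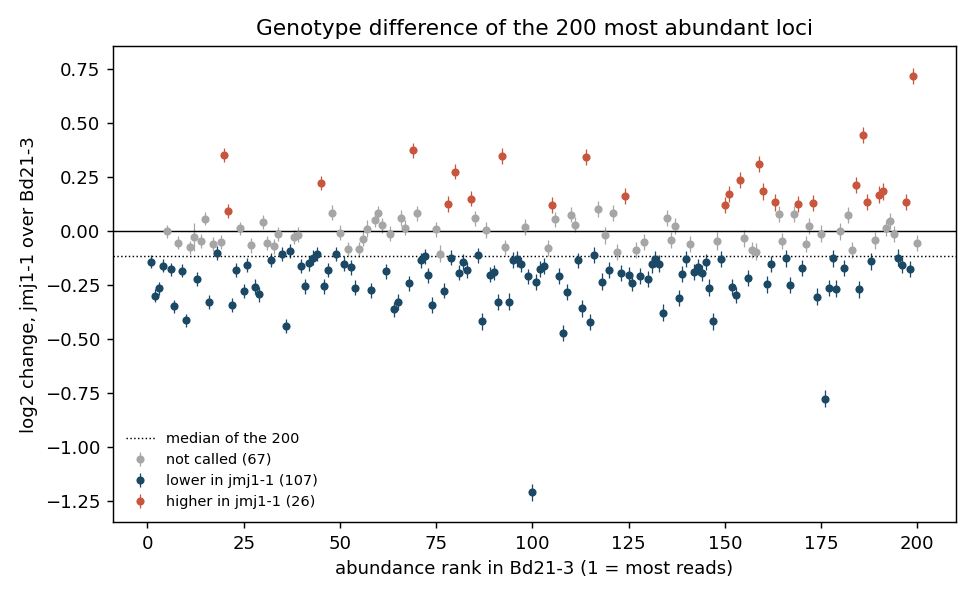
Log2 change of jmj1-1 over Bd21-3 (vertical axis, error bars are 1 approximate SE) against abundance rank in Bd21-3 (horizontal axis) for the 200 loci, with loci called lower in dark blue (107), called higher in red (26) and not called in grey (67). Most points lie between -0.5 and 0.5, the dotted median is at -0.12, and only the 2 lowest and the highest point pass 1.5-fold.

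The 2 called loci that fell most stood lower in the ranking. BRADI_1g39167v3, at rank 100, had 847.0 and 827.8 CPM in Bd21-3 and 366.9 and 357.2 CPM in jmj1-1. The mutant values were under those of the wild type by far more than either replicate gap, with a log2 change of -1.21 (SE 0.038, adjusted p = 5.9e-35), and the locus stood at rank 279 in jmj1-1. BRADI_3g37940v3, at rank 176, had 527.7 and 521.0 CPM in Bd21-3 and 308.1 and 304.1 CPM in jmj1-1. Its log2 change was -0.78 (SE 0.039, adjusted p = 2.12e-24), and its rank of 368 in jmj1-1 was the lowest of the 200.

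The 2 that rose most came from the end of the ranking. BRADI_1g12130v3, at rank 199, had 507.1 and 479.2 CPM in Bd21-3 and 822.0 and 799.4 CPM in jmj1-1, where it stood at rank 97. The log2 change was 0.72 (SE 0.038, adjusted p = 1.22e-23). BRADI_4g31440v3, at rank 186, had 511.8 and 515.3 CPM in Bd21-3 and 705.0 and 689.9 CPM in jmj1-1, a log2 change of 0.44 (SE 0.037, adjusted p = 9.01e-15). At each of these 4 loci the groups did not overlap. What they encode is not in the files used here. A rise at high abundance added more reads. The locus ranked 20, chosen after its values were seen, had 3403 and 3307 CPM in Bd21-3 and 4324 and 4231 CPM in jmj1-1. It gained 0.106 percentage points of the reads, the largest gain among the 200.

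The membership changed little between the genotypes. Of the 200 loci, 187 were also among the 200 most abundant in jmj1-1, ranked by the same rule. The 13 that left the list were all called lower in edgeR's quasi-likelihood test, and of the 13 that entered, 7 were called higher. These directions follow in part from how the lists are formed. One entrant stood at rank 685 in Bd21-3 and at rank 166 in jmj1-1. It had 206.0 and 199.2 CPM in Bd21-3 and 542.1 and 543.7 CPM in jmj1-1, and its log2 change was 1.42 (adjusted p = 7.39e-37). The other entrants came from ranks 204 to 259. Within the 200, 84 loci moved by 5 ranks or fewer and 42 by more than 20.

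A choice on Bd21-3 levels favours loci that happened to read high there, so the choice was also made in other libraries. When the 200 loci were chosen in Bd21-3 replicate 1 alone, they held 32.2% of reads in Bd21-3 replicate 2, which took no part in the choice, and 31.1% and 30.6% in the jmj1-1 libraries. Chosen in replicate 2, they held 32.3% in replicate 1 and 31.1% and 30.6% in jmj1-1. The median log2 gap between jmj1-1 and the Bd21-3 library not used for the choice was -0.11 and -0.13. Each of these lists shared 197 loci with the list chosen in both. With the 200 chosen in jmj1-1, a choice that favours the mutant, the shares were 32.2% and 32.1% in Bd21-3 and 31.2% and 30.7% in jmj1-1. In that list 94 loci were called lower and 33 higher, and the median log2 change was -0.09.

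The lower level in jmj1-1 became smaller down the ranking. The median log2 change was -0.12 for ranks 1 to 200, -0.08 for ranks 201 to 400 and -0.03 for ranks 401 to 800, with -0.04 for ranks 801 to 1600 as an exception to the order. It was 0.05 for the tested loci below rank 12800. Loci ranked low in Bd21-3 tend to read higher elsewhere for the reason given above, and ranking in all 4 libraries or in jmj1-1 made the span narrower. Ranked in jmj1-1, the medians were -0.09 for the first 200, -0.05 for ranks 201 to 400 and 0.02 for the lowest group. These are descriptions of the groups without a test, and the values depend on TMM scaling as given above.

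**Figure D4:**
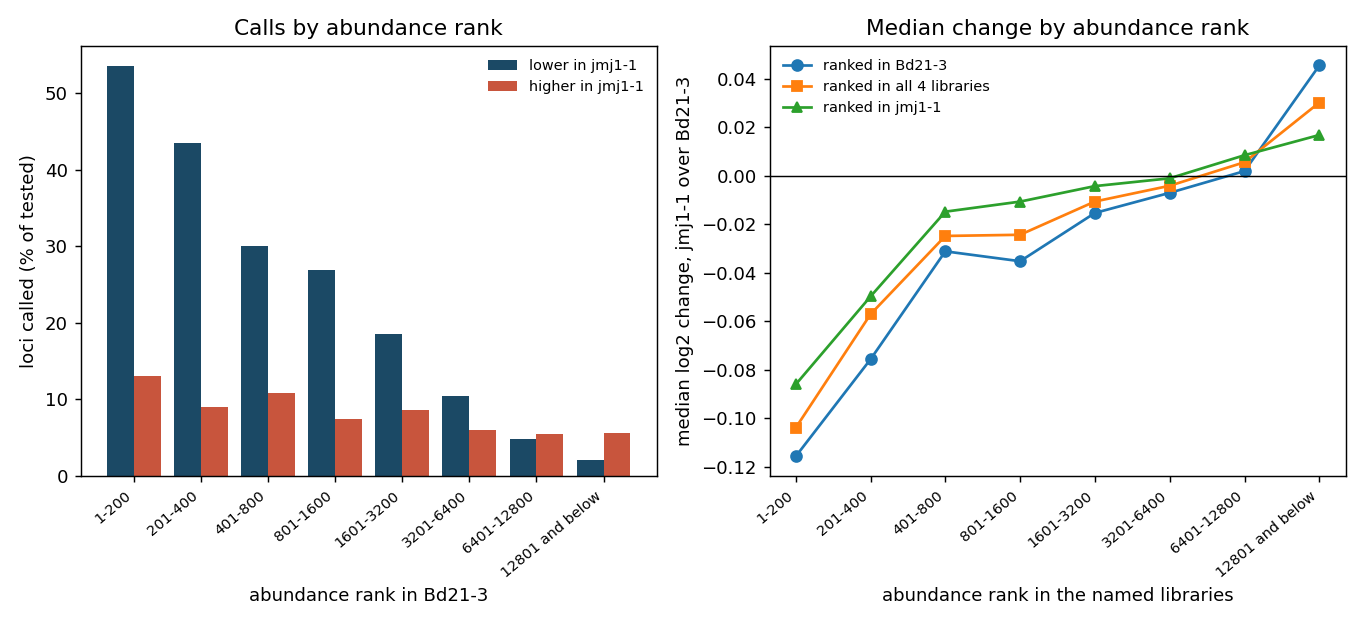
Left, loci called lower (dark blue) and higher (red) in jmj1-1 as % of tested loci, by abundance rank in Bd21-3. Right, median log2 change of jmj1-1 over Bd21-3 by rank when loci are ranked in Bd21-3, in all 4 libraries or in jmj1-1; the first 200 loci have medians of -0.12, -0.10 and -0.09, and the lowest group is above 0 in each ranking.

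At 39 of the 200 loci at least one replicate gap was as large as the gap between genotypes or larger. The locus ranked 12, chosen after its values were seen, had 4227 and 6053 CPM in Bd21-3 and 5651 and 4420 CPM in jmj1-1. It was high in replicate 2 of the wild type and in replicate 1 of the mutant, and was not called (adjusted p = 0.856). The locus ranked 57 was the only other one with a replicate gap above 0.2 on the log2 scale, at 1371 and 1599 CPM in Bd21-3. Without the locus ranked 12, the other members held 31.9% and 31.6% in the wild type against 30.6% and 30.2% in the mutant, a difference of -1.40 points.

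The first digit of a BRADI identifier gives the chromosome by convention. By that digit, chromosome 1 held 73 of the 200 loci, which is 36.5% against 29.5% of all tested loci. Chromosome 2 held 31 (15.5% against 22.6%) and chromosome 3 held 48 (24% against 22.6%). Chromosome 4 held 32 (16% against 15.6%) and chromosome 5 held 16 (8% against 9.34%). On each chromosome more of these loci were called lower than higher. The same was so for all tested loci of each chromosome, for example 7.83% lower and 6.27% higher on chromosome 1. On chromosome 5, 11 of the 16 were called lower, 5 were not called and 0 were called higher in edgeR's quasi-likelihood test, with 0 higher at an unadjusted p under 0.05 or in DESeq2. With so few loci, and 13.0% of all 200 called higher, this count is no result about chromosome 5. Of all tested loci on that chromosome, 7.88% were called lower and 6.33% higher, close to the shares over all genes. The 32 loci of chromosome 4 gave 8.34% and 8.27% of the wild-type reads, more than the 48 loci of chromosome 3 with 6.51% and 6.41%.

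Loci that lie side by side did not always move alike. Among the 200, 9 pairs stood within 5 rows of each other in the file, and 5 of them were direct neighbours. Both loci were called lower in 1 pair and higher in 1 pair, and no pair was called in opposite directions. In every other pair only 1 locus was called, so these counts say little about whether neighbours move together. The log2 changes within a pair differed by a median of 0.19 and by up to 0.39. Neighbouring loci can be close copies, and the labels do not say how reads that match several places were counted, so reads of such pairs may be split between them.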

How the data were processed

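The authors deposited a table of raw read counts, with genes in rows and the 4 libraries in columns. Trimming with cutadapt, alignment tools HISAT2 and SAMtools, and counting with featureCounts are listed in the submitters' processing notes. Neither labels nor file header state the genome build, annotation release, strand setting or treatment of reads with several matches, so counts of overlapping, antisense or near-identical loci are uncertain. Columns were matched to samples by title.

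From the deposited counts, genes were kept by filterByExpr (21456 genes), scaled by TMM and tested in R 4.3.3 with edgeR 4.0.16 (quasi-likelihood F-test, two-sided, Benjamini-Hochberg over all tested genes, threshold 0.05). SEs are the absolute log2 change divided by the square root of F. The 200 loci were ranked by CPM on column totals, and shares are reads over column totals with exact Clopper-Pearson 95% intervals. The members and lists were chosen with earlier results of these data known. Named loci are the 2 called members that rose most and the 2 that fell most, and others are given by rank. Planned lists by gene description were not used, as no identifier matched. The test was checked on simulated data. Alternatives covered scaling, filters, DESeq2 1.42.0, limma 3.58.1 (voom), a fold test, the replicate block, left-out libraries and other memberships.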

Additional observations from a re-analysis of the deposited data

How the results depend on the processing

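The share of the 200 loci, jmj1-1 minus Bd21-3, lay between -1.65 and -1.13 points with 1 library left out. Some choices of scaling, filter and tool moved the counts of calls, and others did not. With limma-voom, 2895 genes were called, against 2978 in the main test. Library totals gave 2043 genes and 42 members higher, and a median log2 change of the members of -0.062, against -0.091 when scaled by the reads outside the members. Without the filter, 1788 genes were called (746 higher, 1042 lower), with 17 members higher. DESeq2, also run without that filter, called 1174 genes (463 higher, 711 lower), so tool and filter are not told apart there. The test against a fold of 1.2 called 684 genes (421 higher, 263 lower), with 4 members higher and 11 lower, fewer by construction. What moved the other counts was not tested. With 3 libraries there were 1791 to 2857 calls, 749 to 1237 higher and 1042 to 1620 lower, with 11 to 28 members higher and 73 to 111 lower. Fewer libraries give less power, and a lone library is taken to vary as the other genotype does. Lists of 100 and 400 loci gave 8 and 44 higher, which is 8% and 11%, against 13% of the 200. They gave 57 and 194 lower, which is 57% and 48.5%, against 53.5% of the 200. The list chosen in jmj1-1 had a median of -0.086. The replicate block gave 27 members higher and 108 lower, and changed no call of a named locus. Nothing in the labels pairs the libraries, and deviations from the genotype means correlated between libraries of the same number at -0.02 over all genes and -0.37 over the members, or -0.12 without the locus ranked 12. With the numbers crossed, chosen after seeing the data, 3230 genes and 107 members lower were called. The 4 named loci kept their direction in all 18 settings. Without the filter on low counts, their adjusted p-values in edgeR's quasi-likelihood test were at most 6.63e-05. These loci were picked for the largest called changes in the same libraries, so this says little.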
